A study of Mus musculus with 45 samples.

Results

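Spontaneous 2-cell-like cells were compared with the mouse embryonic stem cells (mESCs) they arise among. The comparison rests on 6 of the 45 RNA-seq libraries in the series, 3 of GFP-positive cells (2CLC) and 3 of GFP-negative cells (mESC), chosen by their labels. All 6 came from BL6/129 mESCs of the line EHMT2-dTAG-mcherry-mervl-gfp after 72 h in DMSO. This line carries a degron and an mCherry reporter on the histone methyltransferase EHMT2, and a TurboGFP reporter driven by MERVL elements, in both groups alike. DMSO is the solvent control, so no EHMT2 was degraded on purpose here. Each library was made from 200000 cells sorted on GFP, from cultures with FBS and LIF on mitomycin C-treated mouse embryonic fibroblast feeders. The reporter cells were grown from picked colonies, and the labels give a replicate number but no clone, so p-values measure the spread between these samples, which may be technical. Another 6 libraries of the same line, sorted in the same way after 72 h with the degrader dTAG, entered the fit and are given beside the DMSO values at the end.

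2-cell-like cells appear in small numbers in ordinary mESC cultures and resemble blastomeres of the 2-cell embryo, the stage at which the mouse zygote starts its own transcription. The transcription factor DUX opens this program in the embryo and binds the long terminal repeats of MERVL, an endogenous retrovirus whose repeats serve as promoters for many genes of that stage. Such cells are known to carry little OCT4 protein and to return to the mESC state.

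Each value below is a normalized count, a read count divided by the authors' size factor for that library, so the values of a gene can be compared between libraries but not between genes of different length. The libraries of a group are numbered from 1 to 3 by decreasing size factor, which is not the replicate number of the labels. Differences are 2CLC minus mESC on the scale of log2(normalized count + 1), with the standard error (SE) and the Benjamini-Hochberg adjusted p of limma, and n = 3 libraries a group. Genes with an adjusted p under 0.05 and a difference of 1 or more in size are referred to as called. Recovered gene reads ran from 6096693 to 9644540 in mESC and from 4731112 to 9233133 in 2CLC. Library 1 of 2CLC stood apart in its repeats, with 902559 normalized counts summed over the 1096 repeat families that had values in every library, against 400012 and 502523 in the other 2CLC libraries. The mESC libraries had 306516, 220873 and 209801, and among them library 2 had the highest counts of Zscan4c, Zscan4d and MERVL-int. A bulk measurement cannot tell fewer cells of a type from less RNA per cell.

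The 2-cell-like markers separated the sorted populations. MERVL itself drove the reporter, so its levels describe the gate. They were not tested, because its counts in 2CLC were too high for library values. MERVL-int, the internal part of the element, had an authors' mean of 6891 normalized counts in mESC and 1643468 in 2CLC, a ratio of 238.5. Its long terminal repeat MT2_Mm had authors' means of 842 and 182380, a ratio of 216.5. Within mESC the MERVL-int counts were 5519, 10714 and 4440, so the GFP-negative cells were not free of it. Of the mESC markers, Pou5f1, Nanog and Zfp42 were abundant in both populations, and Klf4, Sox2 and Esrrb had lower values in 2CLC, the last pair by the authors' means alone.

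Of 18659 genes tested, 2852 were called higher in 2CLC (15.3%) and 1429 lower (7.66%), and the median difference over all tested genes was -0.02. In 27.4% of tested genes all 3 libraries of 2CLC lay above all 3 of mESC, and in 25.3% all lay below. The calls were uneven in size. At a difference of at least 2, the lower calls dropped to 211. Of 14087 protein-coding genes tested, 1734 were higher and 1251 lower, while unprocessed pseudogenes had 140 of 218 higher and 4 lower. Long intergenic RNAs had 226 of 538 higher and 47 lower. The filter left out most of the 2723 unprocessed pseudogenes and 5629 long intergenic RNAs. Of 391 tested genes of any type with no read in the DMSO mESC libraries, 377 were called higher. Such genes passed the filter through other groups, so the shares by gene type depend on the filter. Reads that fit several places were written to a single random place, so values of near-identical copies and of pseudogenes are uncertain at the level of a single copy.

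**Figure D1:**
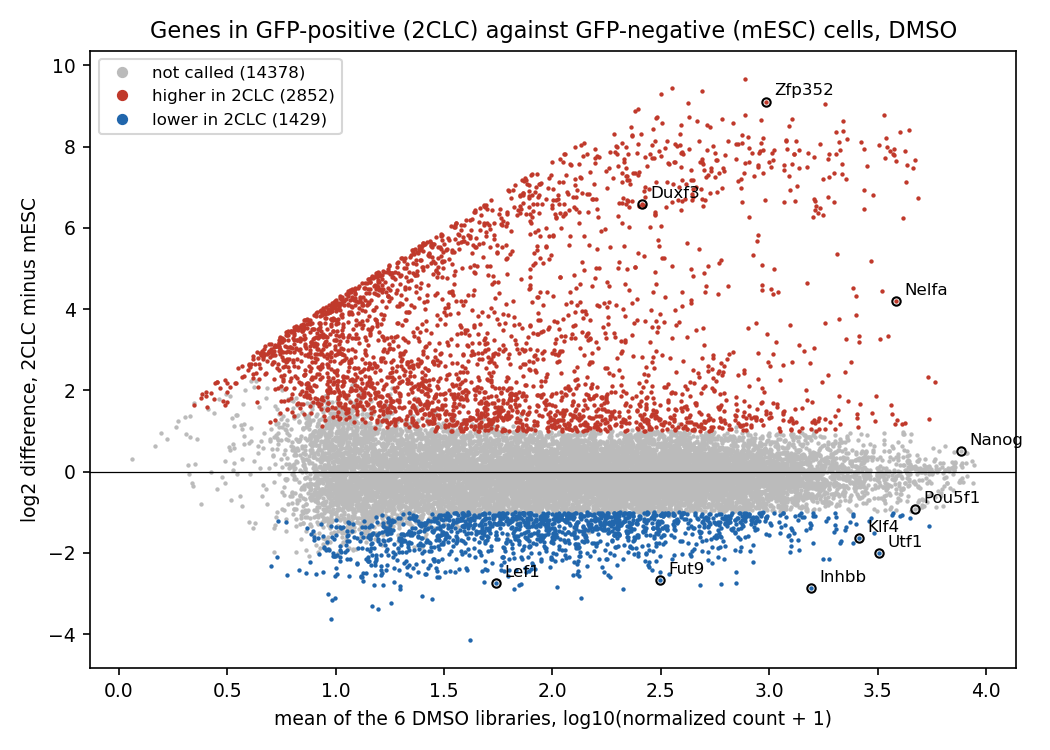
Each point is a tested gene, with the mean of the 6 DMSO libraries on the x axis, log10(normalized count + 1), and the log2 difference of 2CLC minus mESC on the y axis. Red points (2852) were called higher in 2CLC and blue points (1429) lower, and the higher calls reach 9.67 while the lower calls reach -4.14.

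Some factors of the 2-cell program were far higher in 2CLC, while most of the tested list was not called. Of 18 genes in the list of 2-cell transcription factors, 12 could be tested. Of these 5 were higher, 0 lower and 7 not called, with a median difference of 0.34, and the other 6 are known by the authors' means alone. Duxf3, the gene of DUX, had 3.50, 9.26 and 2.14 normalized counts in the mESC libraries and 593, 396 and 546 in 2CLC. The groups were far apart, by 6.59 (SE 0.48, adjusted p = 6.06e-08). Zfp352, a zinc-finger gene of the 2-cell stage, went from 1.40, 4.63 and 2.14 in mESC to 2142, 1818 and 1824 in 2CLC, a difference of 9.11 (SE 0.29, adjusted p = 5.07e-11). Dppa2, which encodes a chromatin protein upstream of Dux, was already present in mESC at 310, 621 and 379 normalized counts and stood at 4269, 3674 and 4245 in 2CLC. Its difference was 3.27 (SE 0.23, adjusted p = 3.78e-08), whereas its partner Dppa4 differed by 0.23 (SE 0.19, adjusted p = 0.365) and was not called. Nelfa, a subunit of the negative elongation factor that marks these cells, had 352, 390 and 445 in mESC and 7886, 5641 and 8423 in 2CLC, a difference of 4.19 (SE 0.17, adjusted p = 1.55e-09). Dppa3, a maternal factor that guards DNA methylation, rose from 8.39, 11.1 and 11.8 to 103, 153 and 140, a difference of 3.54 (SE 0.35, adjusted p = 1.74e-06). Nr5a2, an orphan nuclear receptor, went the other way at -0.80 (SE 0.14) and did not reach the size for a call.

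Zscan4 genes, telomere-linked factors that define the 2-cell-like state, were so abundant in 2CLC that most had no library values there. Zscan4c had 133, 508 and 125 normalized counts in the mESC libraries and an authors' mean of 255 in mESC against 44464 in 2CLC. Zscan4d had authors' means of 155 and 29920. The pseudogene Zscan4-ps1, the single member with values in every DMSO library, had 16.8, 71.3 and 26.7 in mESC and 8635, 5316 and 8372 in 2CLC, a difference of 7.79 (SE 0.40, adjusted p = 1.63e-09). The copies sit together on chromosome 7 and are near-identical, so a level of a single copy is uncertain. In RefSeq promoters (GRCm38.p6), the 250 bases before the start of Zscan4c and Zscan4f shared a run of 127 identical bases, and the other pairs among 4 copies shared runs of 50 to 86. The last 100 bases before each annotated start are shown 5′ to 3′ to compare copies and genes of the program, first for 4 Zscan4 copies and then for 4 genes picked by hand among those called higher, by 6.18 to 9.11, with the letters TATAAAA or TATATAA, read on the shown strand, in capitals. The window of Zfp352 holds neither.
Zscan4b, chr7:10905051-10905150, minus strand: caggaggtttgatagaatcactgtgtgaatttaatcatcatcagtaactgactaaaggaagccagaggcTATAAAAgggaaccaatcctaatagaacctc
Zscan4c, chr7:11005645-11005744, plus strand: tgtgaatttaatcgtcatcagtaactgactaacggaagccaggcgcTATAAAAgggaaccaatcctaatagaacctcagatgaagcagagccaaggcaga
Zscan4d, chr7:11166149-11166248, minus strand: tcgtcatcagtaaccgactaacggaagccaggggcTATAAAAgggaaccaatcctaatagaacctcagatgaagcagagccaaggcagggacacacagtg
Zscan4f, chr7:11397815-11397914, plus strand: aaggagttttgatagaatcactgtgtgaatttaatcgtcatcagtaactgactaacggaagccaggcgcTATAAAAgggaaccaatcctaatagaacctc
Zfp352, chr4:90218720-90218819, plus strand: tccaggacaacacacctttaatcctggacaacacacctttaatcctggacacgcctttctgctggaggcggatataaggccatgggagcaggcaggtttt
Tdpoz1, chr3:93676284-93676383, minus strand: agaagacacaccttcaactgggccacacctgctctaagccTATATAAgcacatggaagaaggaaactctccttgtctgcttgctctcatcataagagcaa
Spopfm2, chr3:94178194-94178293, minus strand: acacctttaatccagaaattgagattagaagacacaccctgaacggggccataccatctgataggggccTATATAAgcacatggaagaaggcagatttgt
Gm21761, chr13:119913469-119913568, minus strand: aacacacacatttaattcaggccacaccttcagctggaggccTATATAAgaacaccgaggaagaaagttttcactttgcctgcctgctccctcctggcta

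Both TATA motifs were chosen after these promoters had been read, so their shares are a description. Of 14075 protein-coding symbols tested, 10990 matched a promoter. On either strand of the 250 bases, TATATAA stood before 9.02% of the 266 genes called higher by at least 4 on the log2 scale, before 4.06% of all genes called higher, 1.18% of those called lower and 1.75% of all matched genes tested. For TATAAAA the shares were 7.52%, 6.02%, 3.10% and 2.94%. Over all 27025 genes with a promoter in the reference, expressed here or not, 3.60% held TATATAA and 5.85% held TATAAAA.

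Effector genes of the 2-cell state were mostly higher. Of 30 listed, 29 could be tested, 25 were higher and 0 lower, with a median difference of 7.34 against -0.02 over all genes. Tcstv1, of the Tcstv genes linked to telomere upkeep, had 0, 13.0 and 2.14 normalized counts in mESC and 1531, 1488 and 1595 in 2CLC, a difference of 8.77 (SE 0.63, adjusted p = 5.86e-08). Tcstv3 beside it on chromosome 13 went from 0, 7.41 and 4.28 to 1363, 1160 and 1524. Usp17la, a deubiquitinase gene, had 18.2, 61.1 and 22.5 in mESC and 5290, 3723 and 4487 in 2CLC. In each of these genes every 2CLC library exceeded every mESC library by a wide margin, and mESC library 2 was the highest of its group. The 4 listed genes that were not called were named after their values were seen. Eif1a differed by -0.30 (SE 0.13), Zfp811 by -0.40 (SE 0.27), Cpsf4l by -0.47 (SE 0.28) and Zfp750 by -0.92 (SE 0.27).

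**Figure D2:**
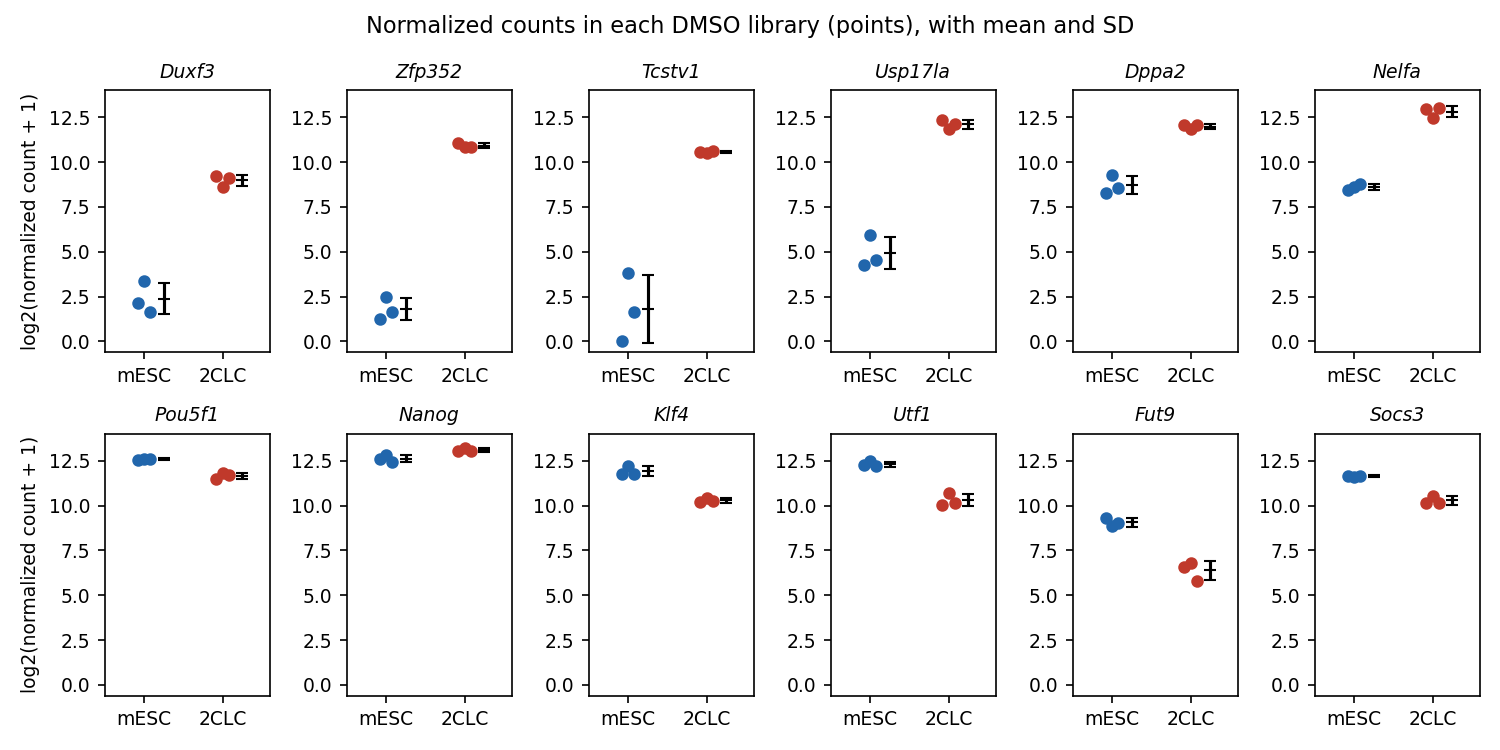
Normalized counts of 12 genes in each DMSO library, as log2(normalized count + 1) on the y axis, with mESC points in blue, 2CLC points in red and the mean with SD (n = 3) in black beside them. Genes of the 2-cell program separate widely, while Nanog is close in both groups and Klf4, Utf1, Fut9 and Socs3 sit lower in 2CLC.

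Where the higher group averaged 100 normalized counts or more, the 10 protein-coding genes with the largest rise included little-studied relatives of these effectors. BC147527 led with 0, 5.56 and 0 normalized counts in mESC and 1659, 1323 and 1621 in 2CLC, a difference of 9.67 (SE 0.53, adjusted p = 3.54e-09). Sp110, a nuclear body gene, had 3.50, 3.71 and 3.21 in mESC against 2101, 1705 and 1644 in 2CLC, a difference of 8.66 (SE 0.21, adjusted p = 5.49e-12). B020031M17Rik differed by 9.04, Gm21761 by 8.78, B020004J07Rik by 8.73, Gm16513 by 8.70 and Gm21762 by 8.54. BC147527, B020031M17Rik, Gm21761, Gm21762, Tcstv1 and Tcstv3 all lie on chromosome 13, from 119893388 at the start of Tcstv1 to 120318178 at the end of Tcstv3 (GRCm38).

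Several multi-copy gene families were higher in all or nearly all of their tested members. All 12 tested members of the Spopfm and Tdpoz family, adaptors of a ubiquitin ligase, were higher with a median difference of 7.23. Spopfm1 led at 8.53 (SE 0.30), followed by Tdpoz4 at 8.44, Spopfm2 at 8.31 and Spopfm3 at 8.13, and the lowest was Tdpoz6 at 4.46. Of 55 Obox genes and pseudogenes, homeobox genes of the oocyte and early embryo, 34 were tested and all 34 were higher (median 6.24). The leading members Obox4-ps20 at 8.07, Obox4-ps28 and Obox4-ps13 at 7.92 and Obox4-ps19 at 7.88 are pseudogene copies in a single cluster. All 5 tested Usp17l genes were higher by 7.12 to 7.89, with Usp17lc, Usp17lb and Usp17ld at 7.89, 7.56 and 7.26. In the PRAME-like family 9 of 10 tested genes were higher, led by Pramef25 at 8.12, Pramef6 at 7.75, Pramef17 at 6.92 and Pramel7 at 5.47. Its exception, named after its value was seen, was Pramef12 at 0.32 (SE 0.17, adjusted p = 0.162), expressed in both populations. A member passed the filter on low counts mostly through its level in 2CLC, so these counts cover the tested members and not the families.

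Receptor genes of the nose were mostly under the filter. Of 1410 olfactory receptor genes 43 passed the filter, and 35 of these were higher and 1 lower. Of the 43, 24 had no read in any DMSO mESC library and so passed through other groups, so the olfactory share called higher is largely fixed by the filter. Of the 22 vomeronasal receptors that passed, 5 had no read there, so their share depends on the filter at least in part. Olfr376 had 0.699, 0 and 2.14 normalized counts in mESC and 429, 361 and 391 in 2CLC, a difference of 7.82 (SE 0.38). Olfr787 differed by 7.28 and Olfr815 by 7.22, whereas Olfr985, expressed in mESC at 14.7, 21.3 and 26.7, was lower by -1.78 (SE 0.51, adjusted p = 0.0127) and was named after its value was seen. Vomeronasal receptors had 14 of 22 tested members higher and 0 lower, with Vmn2r12 at 6.13 and Vmn1r227 at 5.92. In Olfr787, Olfr815, Vmn1r227 and Vmn2r12 library 1 of 2CLC was the highest, with Vmn2r12 at 523, 88.0 and 174.

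**Figure D3:**
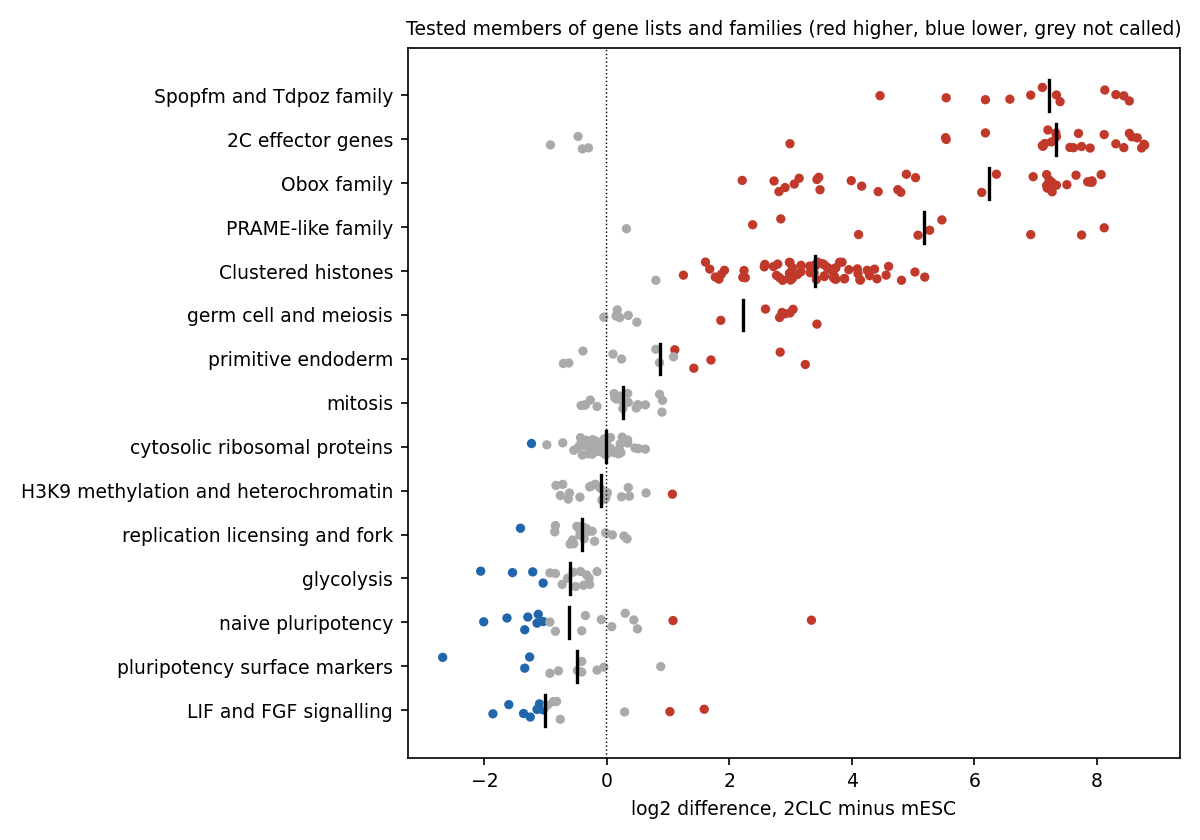
Log2 difference of 2CLC minus mESC (x axis) for the tested members of 15 lists and families (rows), with a black bar at each median and a dotted line at the median of all tested genes, -0.02. Families of the 2-cell program and histones lie to the right, and pluripotency genes and LIF and FGF signalling to the left.

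Histone genes were higher almost without exception. Of 72 linker and clustered core histone genes 68 were tested, 67 were higher and 0 lower, with a median difference of 3.40, and in all 68 the groups did not overlap (27.4% of all genes lay apart in that direction). H4c9 had 129, 235 and 117 normalized counts in mESC and 7223, 4177 and 5783 in 2CLC, a difference of 5.19 (SE 0.29, adjusted p = 4.42e-09). H4c2 was higher by 5.03, H2bc11 by 4.81 and H3c3 by 4.60. By class the medians were 3.17 for 15 H2ac genes, 3.38 for 14 H2bc, 3.49 for 12 H3c, 3.83 for 10 H4c and 1.80 for 8 H1f genes. The tested members also include 2 replacement linker histones, which are not tied to replication. H1f0 was the exception at 0.80 (SE 0.13), and H1f10, named after its value was seen, was called higher at 1.25 (SE 0.18). Summed over 72 genes, the mESC libraries held 4966, 4218 and 4246 normalized counts and the 2CLC libraries 32903, 25273 and 33349. Beside this, none of 20 mitosis genes was called (median 0.27) and 1 of 21 genes of replication licensing and fork was lower with 0 higher (median -0.41), that gene being the polymerase subunit Pold1 at -1.41 (SE 0.30). Messages of the replication-dependent histones mostly lack a poly(A) tail.

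Single-exon genes were called higher more often than called lower. Of 455 protein-coding genes with 1 annotated exon, 208 were higher and 23 lower (median 0.84), against 1524 and 1227 of 13622 genes with 2 or more exons (median -0.09). Without histones, receptors and the families above, 387 single-exon genes still had 141 higher and 23 lower, with a median of 0.59. Reads were aligned without introns, so reads across an exon junction could not be placed.

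Naive pluripotency genes were divided. Of 21 listed 18 were tested, 7 were lower (38.9%) and 2 higher (11.1%), with a median of -0.63, against 7.66% and 15.3% of all genes. Klf4, a factor downstream of LIF, had 3448, 4837 and 3477 normalized counts in mESC and 1169, 1385 and 1219 in 2CLC, a difference of -1.63 (SE 0.16, adjusted p = 1.52e-06). Utf1, a chromatin-bound factor of undifferentiated cells, was lowest at -2.01 (SE 0.23), with 4895, 5700 and 4794 against 1066, 1664 and 1157. Tfcp2l1 was lower by -1.34. Pou5f1, the gene of OCT4, had 5971, 6277 and 6302 in mESC and 2868, 3577 and 3298 in 2CLC. Its groups did not overlap, and its difference of -0.93 (SE 0.12, adjusted p = 2.40e-05) fell just under the size for a call, which it reached at -1.01 without library 2 of 2CLC. Nanog was on the other side, at 6142, 7304 and 5604 against 8480, 9702 and 8589, a difference of 0.50 (SE 0.15, adjusted p = 0.0199) that was too small for a call. Zfp42 differed by -0.41 (SE 0.13). By the authors' means, Sox2 went from 11238 to 3736 and Esrrb from 9500 to 4010, with 3378, 4858 and 2971 for Sox2 in the 2CLC libraries.

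A pair of genes in this list rose. Fbxo15, an F-box gene and a classical mESC marker, had 333, 491 and 559 normalized counts in mESC and 3988, 3732 and 6412 in 2CLC, a difference of 3.34 (SE 0.21, adjusted p = 1.59e-08). Rex2 was higher by 1.08 (SE 0.16). Among surface markers, 3 of 11 tested were lower (27.3%) and 0 higher, against 7.66% and 15.3% of all genes. Fut9, the fucosyltransferase that makes the SSEA-1 epitope, had 643, 460 and 518 in mESC and 93.8, 112 and 53.9 in 2CLC, a difference of -2.68 (SE 0.28, adjusted p = 2.80e-06). Alkaline phosphatase (Alpl) was lower by -1.34 (SE 0.25) and Fut4 by -1.26 (SE 0.37). Fut4 missed the adjusted p without mESC library 1 (0.0773) or without 2CLC library 1 (0.0536) or 3 (0.0505). Epcam and the cadherin Cdh1 were not called, at -0.48 (SE 0.24) and -0.16 (SE 0.20).

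Receptors and targets of LIF signalling, the pathway that keeps mESCs naive, were among the lower calls. In the list of LIF and FGF signalling 7 of 14 genes were lower (50%) and 2 higher (14.3%), with differences from -1.86 to 1.59. Over all genes the shares were 7.66% and 15.3%, so the share higher was near that of all genes. Both chains of the LIF receptor were lower. Il6st (gp130) had 1144, 1207 and 1142 normalized counts in mESC and 286, 342 and 336 in 2CLC, a difference of -1.86 (SE 0.14, adjusted p = 1.37e-07), and Lifr differed by -1.60 (SE 0.17, adjusted p = 3.39e-06). Socs3, a direct target and inhibitor of the pathway, had 3279, 3134 and 3271 against 1139, 1505 and 1148, a difference of -1.36 (SE 0.12). Fgf4 was lower by -1.14 (SE 0.14) and Etv4, a target of ERK, by -1.25 (SE 0.19), while Dusp6, another ERK target, differed by -0.87 (SE 0.16) and was not called. Spry2, an inhibitor of receptor tyrosine kinases, was higher by 1.03 (SE 0.13), while its relative Spry4 was lower by -1.10 (SE 0.21). Fgfr2 was higher by 1.59 (SE 0.26). Without mESC library 2 Spry4 dropped to -0.96, Spry2 to 0.98 without mESC library 3 and 0.99 without 2CLC library 1, and Stat3, lower by -1.04 with all libraries, to -0.99 without 2CLC library 1 and to just inside a size of 1 without mESC library 1, each then under the size for a call.

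**Figure D4:**
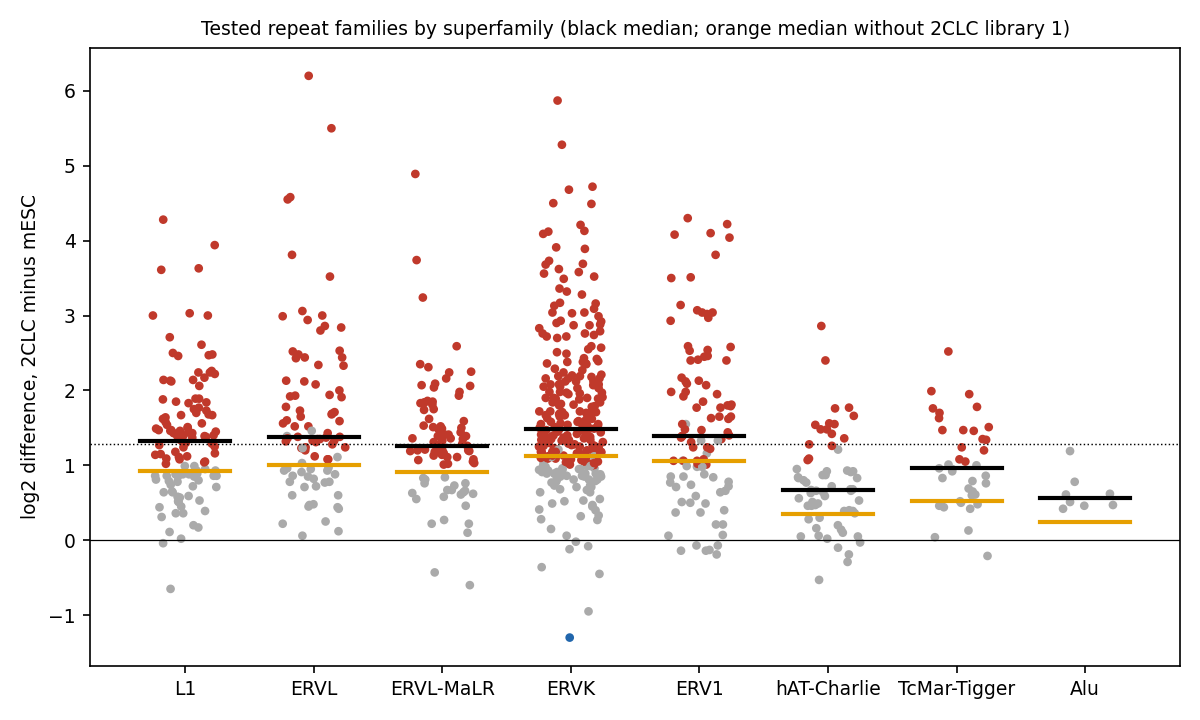
Tested repeat families by superfamily (x axis) and their log2 difference of 2CLC minus mESC (y axis), red where called higher and blue where called lower. Black bars are medians, orange bars are medians without library 1 of 2CLC, and the dotted line at 1.29 is the median of all families.

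Most repeat families were higher in 2CLC. Of 907 repeat families tested, none of them MERVL-int or MT2_Mm, 552 were called higher (60.9%) and 1 lower (0.11%), with a median difference of 1.29. In 64.7% of families all 2CLC libraries lay above all mESC libraries, and in 0.551% below. By the authors' means, repeats made up 7.14% of all normalized counts in mESC and 25.6% in 2CLC. Without MERVL-int and MT2_Mm their summed authors' means were 664932 and 1526267, a ratio of 2.30. The families moved together within a library, and limma took their spread as known. The adjusted p given for a repeat below is therefore that of an ordinary linear model with each family's own spread, with which 459 were higher and 1 lower. The SE beside it and the calls of repeats are still those of limma. Without library 1 of 2CLC, 362 were higher and 4 lower and the median was 0.92. Against the median of all families, 100 were higher and 21 lower.

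Among classes, 395 of 557 long terminal repeat families were higher (median 1.39), 82 of 140 LINE families (1.21), 61 of 164 DNA transposons (0.86) and 1 of 18 tested SINE families (0.61). Without library 1 of 2CLC these counts were 260, 56, 36 and 1. Another 17 of the 35 SINE families, all of B2 and B4 among them, were too abundant for library values and were not tested. Summed over all 35, the authors' means of SINEs were 273935 in mESC and 477750 in 2CLC, a ratio of 1.74. The sums were 75839 and 157856 for B2 (ratio 2.08) and 63041 and 106486 for B4 (ratio 1.69). With a mean of at least 100 in the higher group, the 4 largest rises were X7C_LINE, LTR86A2, ERVB4_2-LTR_MM and LTR16D. X7C_LINE had 23.1, 42.6 and 10.7 normalized counts in mESC and 3132, 2118 and 2453 in 2CLC, a difference of 6.78 (SE 0.42, adjusted p = 3.59e-05). LTR86A2 differed by 6.20 (SE 0.44), ERVB4_2-LTR_MM by 5.87 (SE 0.42) and LTR16D by 5.50 (SE 0.49). Major satellite (GSAT_MM) was scarce, at 2.80, 0.926 and 3.21 in mESC and 14.8, 15.0 and 33.9 in 2CLC, a difference of 2.72 (SE 0.79, adjusted p = 2.43e-02) that fell to 1.43 and was no longer called against the median of all families.

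Young LINE-1 families were abundant in 2CLC, and are given by the authors' means because their counts in 2CLC were too high for library values. L1Md_T, which is still active in mice, went from 9024 to 93559, a ratio of 10.4, and L1Md_A from 3548 to 54036, a ratio of 15.2, the latter chosen after its values were seen. IAPEz-int, the internal part of an active retrovirus repressed by H3K9 methylation, went from 10604 to 21536. ERVB7_1-LTR_MM, an ERVK element and the single family called lower, had 2535, 2524 and 3026 normalized counts in mESC and 1053, 1086 and 1131 in 2CLC, a difference of -1.30 (SE 0.40, adjusted p = 1.08e-02). ERVB4_1C-LTR_Mm differed by -0.95 (SE 0.41) and was not called with all libraries. It was called without library 1 of mESC (-1.25) or of 2CLC (-1.07), and against the median of all families (-2.24). With a mean of at least 100 in the higher group the next lowest were MuLV-int at -0.14 and MER34B-int at -0.13, both of ERV1 and not called. Scarcer families had lower values that were not called either, MER96 at -1.70 (SE 0.82) and MamTip1 at -1.27 (SE 0.60) among them, named after their values were seen. Against the median of all families, MuLV-int (-1.44), MER34B-int (-1.42), MER96 (-2.99) and MamTip1 (-2.56) were called lower. MMETn-int and ETnERV-int, internal parts of ETn elements, had authors' means of 92499 and 17576 in mESC and 29189 and 6479 in 2CLC, and were named after their values were seen.

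Markers of other early lineages were called in both directions. In the formative and primed list 4 genes were lower (30.8%) and 2 higher (15.4%) of 13 tested, against 7.66% and 15.3% of all genes, so the share higher was that of all genes. The 2 higher were Sox3 and Foxa2. Otx2, a factor of the exit from naive pluripotency, had 253, 165 and 213 normalized counts in mESC and 22.2, 52.4 and 35.4 in 2CLC, a difference of -2.55 (SE 0.39). Lef1 was lower by -2.74 (SE 0.50), Zic2 by -2.23 (SE 0.21) and Eomes by -1.18 (SE 0.24), while the SoxB1 gene Sox3 was higher by 3.53 (SE 0.31), at 59.4, 136 and 54.5 against 1170, 741 and 814. Pou3f1 and Dnmt3b were not called at 0.63 (SE 0.20) and 0.32 (SE 0.19), and Fgf5 was under the filter.

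Of 13 primitive endoderm genes 5 were higher (38.5%) and 0 lower (median 0.86), at low levels, against 15.3% and 7.66% of all genes. Sox17 had 3.50, 13.9 and 10.7 normalized counts in mESC and 83.1, 88.0 and 86.3 in 2CLC, a difference of 3.24 (SE 0.42, adjusted p = 2.86e-05). Foxa2 was higher by 2.83 (SE 0.60), the adaptor Dab2 by 1.70 (SE 0.34), Pdgfra by 1.42 (SE 0.33) and Gata6 by 1.11 (SE 0.41, adjusted p = 0.0476). Gata6 passed with all libraries but not without mESC library 2 (1.09, adjusted p = 0.10) or 3 (0.86, 0.173) or without 2CLC library 1 (1.09, 0.107), 2 (1.22, 0.0639) or 3 (1.01, 0.127), and Gata4 differed by 0.10 (SE 0.23). Of 10 trophoblast genes tested 3 were higher (30%) and 3 lower (30%), with Eomes also in the formative and primed list. Gata3 rose from 0.699, 0.926 and 2.14 to 41.1, 31.8 and 38.5, a difference of 4.13 (SE 0.61), and the keratins Krt18 and Krt8 were higher by 1.39 (SE 0.35) and 1.30 (SE 0.27). Tfap2c and Tead4, both expressed in mESC, were lower by -2.10 (SE 0.27) and -1.69 (SE 0.27), and Cdx2 and Elf5 were under the filter.

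Germ cell genes rose in 8 of 14 tested cases (57.1%) with 0 lower and a median of 2.22, against 15.3% higher and 7.66% lower over all genes. Dazl, an RNA-binding protein of germ cells, had 136, 138 and 122 normalized counts in mESC and 1008, 986 and 888 in 2CLC, a difference of 2.86 (SE 0.16, adjusted p = 4.80e-09). Stk31 was higher by 3.43 (SE 0.41), the ribosomal protein paralog Rpl10l by 3.04 (SE 0.16), the mitochondrial carrier Slc25a31 by 2.99 (SE 0.25) and the piRNA factor Mael by 2.91 (SE 0.39). Ddx4 and Sycp3 were not called, at 0.17 (SE 0.23) and 0.21 (SE 0.40). Of 18 oocyte genes 12 were under the filter, Zp3 among them. Of the 6 tested, 3 were higher (50%) and 2 lower (33.3%). Oog4 and Oog1 had 0 reads in all mESC libraries and 24.7, 31.8 and 29.3 and 19.7, 20.6 and 24.7 normalized counts in 2CLC, at least 26.8-fold and 20.3-fold higher against a floor of 3 reads over the mESC group. Khdc3 and Ooep, oocyte factors that mESCs express, were lower by -1.47 (SE 0.27) and -1.08 (SE 0.23).

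Signalling lists held calls in both directions, against 15.3% higher and 7.66% lower over all genes. Of 15 TGF-beta family genes 3 were higher (20%), near the share of all genes, 3 were lower (20%) and 9 were not called. Inhbb, a subunit of activin and inhibin, had 2572, 3274 and 2387 normalized counts in mESC and 373, 398 and 342 in 2CLC, a difference of -2.87 (SE 0.20, adjusted p = 3.61e-08). Id3 and Id2, targets of BMP, were higher by 2.96 (SE 0.29) and 1.67 (SE 0.19), and Id1 by 1.03 (SE 0.13), with 0.97 without mESC library 2 and 0.95 without 2CLC library 3. The receptor Acvr2b was lower by -1.32 (SE 0.36) and Lefty2, a Nodal antagonist, by -1.03 (SE 0.18), with -0.86 without mESC library 2 and -0.99 without 2CLC library 2. Nodal at 0.65 (SE 0.12), Lefty1 at 0.53 (SE 0.28), Smad7 at -0.85 (SE 0.19) and Bmp4 at -0.62 (SE 0.23) were not called.

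Of 13 Wnt genes tested 4 were higher (30.8%) and 3 lower (23.1%), against 15.3% and 7.66% of all genes. Axin2, a feedback target of beta-catenin, had 77.6, 109 and 67.3 normalized counts in mESC and 496, 428 and 407 in 2CLC, a difference of 2.40 (SE 0.21, adjusted p = 4.49e-07). Dkk1, a secreted inhibitor, was higher by 3.52 (SE 0.54) from near 0, and the ubiquitin ligase Znrf3 by 1.05 (SE 0.18), or 0.88 without mESC library 3. The receptor Fzd5 was lower by -1.71 (SE 0.13). Lef1, also in the formative and primed list, had the lowest value at -2.74. Sp5 was called lower too, but missed the adjusted p without mESC library 2 (0.0679) or 3 (0.0616) or 2CLC library 2 (0.0813) or 3 (0.0987). Ctnnb1 at 0.13 (SE 0.11) and Tcf7l1 at 0.01 (SE 0.21) were not called. In retinoid signalling 3 of 11 were higher (27.3%) and 2 lower (18.2%). Rxra, the shared partner of retinoid receptors, rose from 271, 403 and 295 to 3099, 1910 and 2681, a difference of 2.98 (SE 0.20, adjusted p = 2.65e-08), while Rara was lower by -1.65 (SE 0.21). Aldh1a2 and Aldh1a3, which make retinoic acid, were higher by 2.96 (SE 0.43) and 2.45 (SE 0.66), Dhrs3 was lower by -1.89 (SE 0.51), and Rarg differed by 0.78 (SE 0.21).

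Few known repressors of the 2-cell state were called. Of 22 tested 1 was lower (4.55%) and 0 higher, against 7.66% and 15.3% of all genes, so the share lower was near that of all genes. It was the RNA-binding protein Lin28a at -1.11 (SE 0.17), or -0.96 without mESC library 2. Kdm1a differed by -0.09 (SE 0.12) and the chromatin assembly subunit Chaf1a by -0.29 (SE 0.16), and Trim28 had authors' means of 7056 and 10262. Among genes of H3K9 methylation and heterochromatin 1 of 20 was higher (5%) and 0 lower, against 15.3% and 7.66% of all genes. Ehmt2, the tagged gene, had 113, 100 and 137 normalized counts in mESC and 63.3, 58.1 and 72.4 in 2CLC, a difference of -0.83 (SE 0.42, adjusted p = 0.138) that was not called although the groups did not overlap. Ehmt1 at -0.08 (SE 0.14), Suv39h1 at -0.01 (SE 0.14) and Setdb1 at 0.37 (SE 0.12) were not called, and Atf7ip, a cofactor of SETDB1, was higher by 1.07 (SE 0.17), or 0.99 without 2CLC library 1. Of 13 genes of the DNA methylation machinery 2 were lower (15.4%) and 0 higher, against 7.66% and 15.3% of all genes. The lower were Tet2 at -1.36 (SE 0.25) and Gadd45a at -1.02 (SE 0.21), the latter at -0.85 without mESC library 2 and -0.88 without 2CLC library 3. Tet1 went from 9059 to 3419 by the authors' means, and Dnmt1 at -0.70 (SE 0.25), Uhrf1 at -0.29 (SE 0.19), Dnmt3b at 0.32 (SE 0.19) and Dnmt3l at 0.58 (SE 0.30) were not called.

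Lists of cell death and the cell cycle held calls in both directions. Of 19 p53 targets 4 were lower (21.1%) and 1 higher (5.26%), against 7.66% and 15.3% of all genes. Perp, a desmosomal effector, was lower by -2.04 (SE 0.18) and Bbc3, which encodes PUMA, by -1.96 (SE 0.17), with 477, 432 and 466 normalized counts in mESC and 100, 148 and 108 in 2CLC. Bax was lower by -1.08 (SE 0.20), or -0.87 without mESC library 3 and -0.98 without 2CLC library 2, and Plk2 was higher by 1.93 (SE 0.21). Cdkn1a, the gene of p21, differed by -0.87 (SE 0.17), Mdm2 by 0.15 (SE 0.14) and Ccng1 by -0.30 (SE 0.13). Of 14 apoptosis regulators 2 were lower (14.3%) and 1 higher (7.14%). The lower were Hrk at -2.00 (SE 0.37) and Bmf at -1.34 (SE 0.16), while Bcl2l1 and Bcl2l11 were not called at -0.17 (SE 0.16) and -0.50 (SE 0.15). The member called higher was Casp8 at 1.64 (SE 0.58), which missed the adjusted p without mESC library 1 (0.193) or 2 (0.054) or 2CLC library 2 (0.124) or 3 (0.0897). Of 15 cyclin-dependent kinase inhibitors, D cyclins and related genes 2 were higher (13.3%), 2 lower (13.3%) and 11 not called. Mycn, a driver of growth in mESCs, had 3279, 3331 and 3209 in mESC and 1197, 1175 and 1233 in 2CLC, a difference of -1.44 (SE 0.14, adjusted p = 1.45e-06), and Ccnd3 was lower by -1.49 (SE 0.16). Ccnd1 at -0.83 (SE 0.19), Ccne1 at -0.64 (SE 0.19), Cdkn1b at -0.41 (SE 0.24) and Myc at -0.90 (SE 0.28) were not called, and Cdkn2c was higher by 1.33 (SE 0.25) and Cdkn2b by 1.07 (SE 0.29), the latter at 0.95 without mESC library 1 and 0.88 without mESC library 2. Myc was called without library 1 of mESC (-1.18) or of 2CLC (-1.02).

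Of 16 glycolysis genes tested 4 were lower (25%) and 0 higher, with a median of -0.59, against 7.66% and 15.3% of all genes. In dTAG 0 were lower. Hk1 had 697, 508 and 736 normalized counts in mESC and 154, 348 and 194 in 2CLC, a difference of -1.54 (SE 0.32), and Pdk1 was lower by -1.21 (SE 0.22). Hk2 was lower by -1.04 (SE 0.18), or -0.95 without mESC library 1, -0.92 without 2CLC library 1 and -0.95 without 2CLC library 3. Aldoa has 2 entries in the annotation, both counted here. The abundant one, with authors' means of 3002 and 2430, differed by -0.33 (SE 0.38) and was not called. The scarce one, the fourth call and the lowest of the list, had authors' means of 22.4 and 5.15, a difference of -2.06 (SE 0.62, adjusted p = 0.0172), and missed the adjusted p without mESC library 1 (0.0589) or 2 (0.0558) or 2CLC library 1 (0.0718). Without mESC library 1 or 2CLC library 1 both Aldoa and Hk2 were lost, which leaves 2 calls. Slc2a1 at -0.55 (SE 0.28) and Ldha at -0.16 (SE 0.25) were not called. The lists of general cell machinery had few calls. Of 57 cytosolic ribosomal protein genes 1 was lower and 0 higher, and 0 were called in either direction of 26 nuclear genes of oxidative phosphorylation, 22 proteasome, 19 ribosome biogenesis, 13 translation initiation and 12 nonsense-mediated decay genes.

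Markers of the feeder cells were measured because the cultures held fibroblasts. Of 15 tested 3 were higher (20%) and 0 lower (median 0.69), against 15.3% and 7.66% of all genes. The share higher was thus near that of all genes. The 3 were Thy1 at 1.93 (SE 0.17), Ccn2 at 1.93 (SE 0.22) and Fbn1 at 1.76 (SE 0.28). The fibroblast collagens Col1a1, Col1a2 and Col3a1 differed by 0.88 (SE 0.39), 0.82 (SE 0.35) and 0.86 (SE 0.54) and were not called, though without library 1 of 2CLC Col1a1 at 1.17 and Col1a2 at 1.14 were. Lum and Dcn were at or near 0 in both groups. Summed over 18 markers, the mESC libraries held 9064 to 11516 normalized counts and the 2CLC libraries 6683 to 8384, most of it Fn1, with authors' means of 5956 and 3017, a gene that is not particular to fibroblasts. Their part in the results was not tested.

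With a mean of at least 100 in the higher group, the 10 protein-coding genes with the largest drop included factors of neural fate. Scarcer genes had larger drops, down to -4.14 for Foxj1, named after its value was seen. Kbtbd11 led at -3.12 (SE 0.65), followed by Gm13889 at -2.90, Pnma2 at -2.90, Inhbb, Pcdh1 at -2.83, Slco5a1 at -2.80 and Fignl2 at -2.80. Olig2, a factor of oligodendrocytes and motor neurons, had 1154, 1040 and 932 normalized counts in mESC and 126, 196 and 142 in 2CLC, a difference of -2.77 (SE 0.20, adjusted p = 5.55e-08). Sox1, a neural SoxB1 gene, went from 1111, 1528 and 1024 to 200, 187 and 157, a difference of -2.73 (SE 0.19, adjusted p = 3.68e-08), the opposite direction to its relative Sox3. Insl3 was lower by -2.76 (SE 0.45).

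Runs of neighbouring genes called higher were longer than runs called lower, which was not tested. Untested genes between members were skipped, and 15.3% of tested genes were called higher against 7.66% lower. Of 391 tested genes with no read in the DMSO mESC libraries, 377 were called higher, members of the Obox run below among them. Such genes passed the filter through other groups, so the runs depend on the filter. Reads of near-identical copies were placed at random. The longest run of neighbouring tested genes that were all called higher held 51 genes, on chromosome 12 from 87443896 to 88333125, with Oog1 and Snw1 in it. The next held 40 genes on chromosome 5 from 93390602 to 95804708, Gm16513 among them, and 28 on chromosome 3 from 93628640 to 94443915 with the Spopfm and Tdpoz genes. Runs of 26 and 25 genes on chromosome 13 held histone clusters, and a run of 24 on chromosome 7 held Obox pseudogenes. The longest runs called lower held 5 genes, 1 of them with Tfcp2l1, Gli2 and Inhbb on chromosome 1 from 118627945 to 119504794. Chromosome 13 had the largest share called higher among the autosomes, 27.1% of 850 tested genes, and chromosome 15 the smallest, 8.69% of 656. On the X chromosome 22.1% of 682 tested genes were higher and 3.37% lower. Positions are on GRCm38, from GENCODE, which matched 18635 of the 18659 tested genes.

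**Figure D5:**
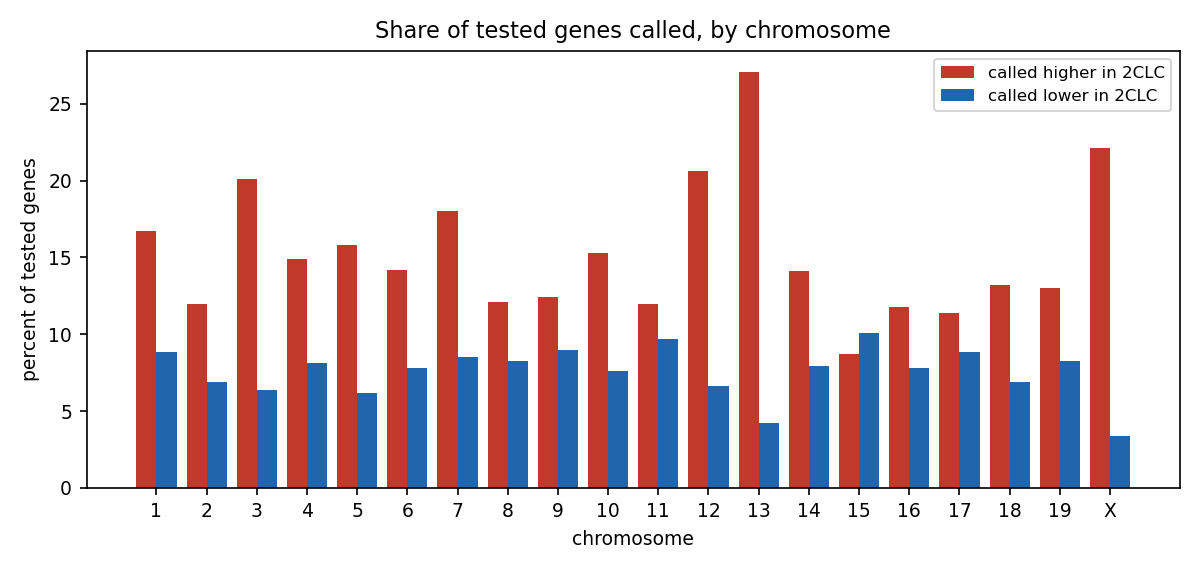
Bars give the percent of tested genes called higher (red) and lower (blue) in 2CLC for chromosomes 1 to 19 and X, with the chromosome on the x axis and the percent of tested genes on the y axis. Chromosomes 13 and X stand highest at 27.1% and 22.1% higher, and chromosome 15 is lowest at 8.69%.

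Cells given dTAG for 72 h showed the same comparison in another 6 libraries. There 2427 of 18630 genes were higher in 2CLC (13%) and 1058 lower (5.68%), and 555 of 895 repeat families were higher (62%) and 2 lower (0.223%). The difference itself differed between treatments for 183 genes (0.982% of those tested), and for 0 repeat families (0%), with 9 families at an unadjusted p under 0.05. The 183 genes became 66 without 2CLC library 1, 69 without 2CLC library 3, 110 and 106 without mESC libraries 1 and 3, and 288 without mESC library 2. Of the 183 genes, 166 were called higher in DMSO with a smaller difference in dTAG. Duxf3 differed by 6.59 in DMSO and 3.19 (SE 0.48) in dTAG, with authors' means of 4.97 and 512 in DMSO cells and 30.01 and 270 in dTAG cells. Zfp352 differed by 9.11 and 6.59 (SE 0.29), its authors' means rising from 2.72 to 73.7 in mESC and from 1928 to 7042 in 2CLC between the treatments. For the histones 63 of 68 were higher in dTAG, with a median of 3.02. Il6st at -1.34, Fut9 at -2.28, Otx2 at -1.62 and Inhbb at -2.24 were called lower in dTAG as well, while Socs3, Fgf4, Etv4, Stat3 and Mycn were not called there. Lower calls were fewer in dTAG in LIF and FGF signalling (7 in DMSO and 2 in dTAG), naive pluripotency (7 and 4) and glycolysis (4 and 0), and these counts were not tested against each other.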

How the data were processed

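RNA-seq libraries were grouped by the labels' sort and treatment. The authors trimmed reads with Trim Galore 0.6.7, aligned them to mm10 with STAR 2.7.10 with no introns and multi-mapping reads written to a single random place, counted GENCODE vM25 genes and repeat families with TEcount at its default settings, which ignore strand, so that overlapping genes on opposite strands cannot be told apart, and divided by DESeq2 1.34.0 size factors. The deposited signal values are the authors' means of normalized counts in each group, and the deposited tables of the authors' own comparisons (fold changes and p-values) were not used.

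A mean of 3 libraries is a sum of whole reads, each divided by 3 times its size factor, so the reads of each library were recovered from the digits of the means up to 10000. Of the means tried, 99.9% to 100% had a single solution and 0 had none. In DMSO 151 genes and 38 repeat families had no library values and are given by the authors' means. Recovered libraries cannot be tied to replicate numbers. The recovery was tested on simulated means.

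limma 3.58.1 in R 4.3.3 was fitted with a trend to log2(normalized count + 1) of the 12 sorted libraries in 4 groups, for features with at least 10 normalized counts in 3 libraries, with Benjamini-Hochberg adjustment over genes and over repeat families apart. In dTAG, 29 genes and 12 repeat families lacked libraries. The fit was tested on simulated counts. Named were the key genes of the lists described, up to 4 further called members of each list or family, the 10 protein-coding genes with the largest difference in each direction among those called with a mean of at least 100 in the higher group, the 4 repeat families each way with such a mean, called or not, and 5 set repeats. Members, lists and tests were chosen with earlier results of these data known.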

Additional observations from a re-analysis of the deposited data

Results flagged for a closer look

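Among the named genes, 16 differed in their 2CLC minus mESC difference between dTAG and DMSO by a test of the difference itself (limma, adjusted p under 0.05). Each value is the log2 difference in dTAG less that in DMSO. It was smaller in dTAG for Obox4-ps20 (-3.43), Duxf3 (-3.40), Obox4-ps19 (-3.38), Obox4-ps28 (-3.33), Obox4-ps13 (-3.32), Zscan4-ps1 (-3.06), Gm16513 (-3.03), Sp110 (-2.98), Gm21762 (-2.85), Usp17ld (-2.59), Zfp352 (-2.51), Spopfm1 (-2.49), Rpl10l (-1.84) and Spopfm2 (-1.80). In these 14 genes the authors' mean of the GFP-negative cells was higher in dTAG than in DMSO, as for Sp110 at 3.47 in DMSO and 70.8 in dTAG, and in 2CLC it was 1817 and 3596. Duxf3 and Zscan4-ps1 were the 2 whose 2CLC mean was lower in dTAG, 512 in DMSO and 270 in dTAG for Duxf3 and 7441 and 5801 for Zscan4-ps1. Socs3 (0.80) was lower in 2CLC by -1.36 in DMSO and -0.57 in dTAG. Eomes (1.89) differed by -1.18 in DMSO and 0.71 in dTAG, with authors' means of 125 and 53.9 in DMSO and 41.1 and 68.8 in dTAG.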

How the results depend on the processing

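Among genes, the count called higher was 2852, and it was 1661 with a mean of at least 50 in 1 of the 2 groups and 1739 for protein-coding genes only, both with fewer genes tested. The count called lower was 1429, and 211 at a log2 difference of 2. Setting the median ratio of genes to 1, a shift of -0.10, gave 3124 higher and 1163 lower. Among repeat families, 552 were higher, and 362 to 641 when each library was left out in turn, 207 at a log2 difference of 2 and 100 with their median set to 0. The 1 lower call became 2 with a pseudocount of 5, 6 without a filter, 21 with the median set to 0, 0 at a log2 difference of 2 and 1 to 4 with a library left out. Leaving out a library gave 260 to 443 LTR, 36 to 79 DNA and 1 to 3 SINE families higher. The 183 genes whose difference differed between treatments became 119 with a pseudocount of 5 and 66 to 288 with a library left out, and the 0 repeat families 0 to 1. The cause was not tested. Of 169 named genes tested, no called gene changed direction under any alternative run. The alternatives with voom weights, each feature's own spread and the median of repeats set to 0, and leaving out libraries for lists, classes and treatments, were chosen after seeing the data. edgeR and DESeq2 were not run because the deposited unit is a mean of normalized counts. No paired analysis was possible because the recovered libraries carry no replicate number. Genes above 10000 normalized counts have no library values, and no spread can be given for them.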
